A study of Bos taurus and Ovis aries and Capra hircus with 27 samples.

Results

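The heart and the liver of cattle were compared in 6 of the 27 messenger RNA libraries of the series, 3 of each tissue, chosen by the species and tissue in the sample titles. Both groups came from indigenous cattle of about 4 years, sampled near Chengdu in Sichuan, with no treatment named. The study sampled 6 tissues from 3 unrelated adult females of each population and describes these cattle as the low-altitude relatives of the yak. By that account, the heart and liver libraries came from the same 3 cattle. The labels do not tie a library to an animal, and the main fit below did not use this pairing. The p-values below therefore measure the spread between libraries. The samples are pieces of whole organ, in which fewer cells of a type and less RNA per cell cannot be told apart. The table listed 24616 genes, of which 12912 (52.5%) exceeded 0.5 FPKM in at least 3 of the 6 libraries and were tested. FPKM divides the sequenced fragments of a gene by its transcript length and by the size of the library, so it allows levels of genes of different length to be set side by side.

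Heart is a contractile organ whose cells are packed with sarcomeres and mitochondria and burn mainly fatty acids. Liver is the main source of the proteins of blood plasma, makes bile and urea, and releases glucose and ketone bodies. A comparison of these tissues therefore sets a muscle with a few extremely abundant transcripts against a secretory and metabolic organ. The table carries Ensembl gene identifiers without names, and 0 of the 24616 could be paired with a symbol in the reference table used here. Genes are therefore described by level and direction, with 4 given by identifier for their differences and 5 for values of 0, and neither the tissue labels nor the makeup of cell types could be checked against marker genes.

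Of the 11704 genes that were not tested, 7242 were listed at 0 in all 6 libraries. The limit fell within a continuous range of values: 256 tested genes had a 3rd-highest value below 0.6 FPKM, and 284 genes just outside had one above 0.4 FPKM. The nearest values on either side of the limit were 0.5005 and 0.4997 FPKM. A group of 621 tested genes passed only through heart libraries, and 395 only through liver libraries. Genes of that kind had to differ by the way they were chosen: 605 and 383 of them were called.

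Libraries of one tissue resembled each other far more than those of the other. Over the tested genes, Pearson's r across genes was 0.963 to 0.987 between heart libraries, 0.945 to 0.967 between liver libraries, and 0.544 to 0.599 over the 9 pairs of a heart and a liver library. These coefficients run across genes, which do not vary independently, and are given as a description. Heart 2 and heart 3 were the closest pair. The robust SD of their log2 difference was 0.127, computed over the 1550 genes with a log2(FPKM + 1) of 5 to 8 in that pair. The same measure was 0.272 and 0.281 for heart 1 with heart 2 and with heart 3, and 0.467 to 0.544 between liver libraries. No tested gene above 0 had the same value in heart 2 and heart 3, so neither is a copy of the other. They were kept as separate replicates, but unequal values do not show that they came from separate animals.

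Heart concentrated its transcripts in fewer genes than liver. The number of genes that together made up 50% of the summed FPKM was 27, 20 and 44 in heart 1, 2 and 3, and 118, 126 and 81 in liver 1, 2 and 3. The tissues did not overlap in this number. The 10 highest genes took 35.3%, 39.9% and 29.1% of the sum in heart and 19.3%, 20.3% and 22.0% in liver, again without overlap (exact permutation p = 0.1, 2-sided, the smallest value that 3 libraries against 3 allow). The share of listed genes above 0.5 FPKM was 51.1%, 50.5% and 50.7% in heart and 47.9%, 50.5% and 50.2% in liver, and there the tissues overlapped (exact permutation p = 0.2, 2-sided). The mean was 1.19 percentage points higher in heart, and 0.356 points higher without liver 1. The overlap depended on the level chosen: above 0.1 FPKM the difference was 1.53 points without overlap (exact permutation p = 0.1, the smallest possible), and above 1 FPKM it was 0.928 points (exact permutation p = 0.5).

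The highest genes were mostly not shared. Of the 100 genes with the highest mean in heart and the 100 with the highest mean in liver, 27 were in both. In heart, 81 of the 100 were called higher in heart, 19 were not called and 0 were called higher in liver, where 30.5% of all tested genes were called higher in heart and 26.4% higher in liver (limma, described below). In liver, 69 of the 100 were called higher in liver, 18 were not called, and 13 were called higher in heart. Some of the highest genes of liver were thus higher still in heart, and none of the 100 highest of heart was called higher in liver. Choosing genes by their mean in a tissue favours calls in its direction, so these counts are a description. They rest on the deposited values and were not repeated under another scaling. The 10 highest genes began at a mean of 13488 FPKM in heart and at 7079 FPKM in liver.

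Several of the most abundant genes were listed at 0 in a single library, and this touches the values above. In heart 3, ENSBTAG00000043564, ENSBTAG00000043560 and ENSBTAG00000043584 were listed at 0, beside 74510 and 54679, 32091 and 50865, and 38185 and 76406 FPKM in heart 1 and 2. ENSBTAG00000043564 was also far lower in a single library without reaching 0. It had 12.6 FPKM in liver 2, beside 17509 and 12778 in liver 1 and 3. In kidney 3 it had 49.7 FPKM, beside 11920 and 11414 in kidney 1 and 2. In liver 1, ENSBTAG00000017121 was listed at 0, beside 14249 and 17199 FPKM in liver 2 and 3. These genes were singled out after their values were seen, as was ENSBTAG00000043561, which was listed at 0 in all 3 heart libraries and had 14562, 8917 and 13159 FPKM in liver. In a table without counts, such a 0 may mark a gene whose estimation failed, so no fold change is given for any of these 5. Without the 4 genes listed at 0 in 1 library and above 1000 FPKM in the others, the 10 highest genes took 9.84 percentage points more of the sum in heart than in liver, against 14.2 points with them.

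In all, 7355 of the 12912 tested genes differed between heart and liver (57%; limma, Benjamini-Hochberg adjusted p at or below 0.05). Of these, 3942 were higher in heart (30.5% of the tested genes) and 3413 were higher in liver (26.4%). The libraries of the tissues did not overlap in 8421 genes (65.2%), which included 7259 of the called genes. The middle 50% of all tested genes lay between −0.66 and 0.80 for heart minus liver on the log2(FPKM + 1) scale, with a median of 0.03. The median size of a called difference was 1.30 in both directions. Differences on this scale understate the change of low genes. Scaling the libraries to the same summed FPKM, which is larger in heart, shifted the median to −0.44, and only 30.6% of the calls were then higher in heart, against 53.6% with the deposited values.

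Genes called in this comparison made up most of each library. The genes called higher in heart held 57.9%, 58.6% and 72.7% of the summed FPKM of heart 1, 2 and 3. They held 17.3%, 12.9% and 13.5% of liver 1, 2 and 3. The genes called higher in liver held 52.4%, 61.2% and 57.4% of the liver libraries and 3.30%, 3.18% and 4.04% of the heart libraries. The genes higher in heart thus kept a larger share of liver than the genes higher in liver kept of heart. The classes were set by calls on these same libraries, which favours a larger share in their own tissue, so the shares are a description. They rest on calls from the deposited values and were not repeated under another scaling. The tested genes that were not called, which include the 3 genes listed at 0 in heart 3, held 37.7%, 37.8% and 22.6% of heart 1, 2 and 3.

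**Figure D1:**
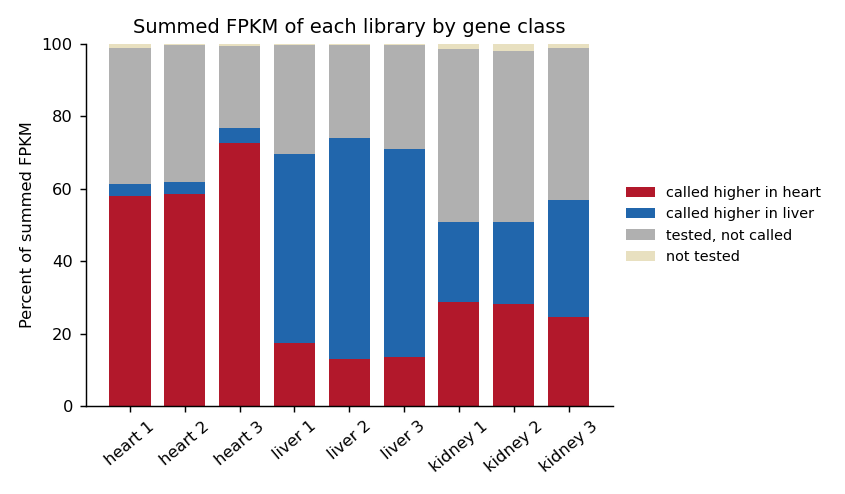
Bars show the percent of the summed FPKM of each cattle library held by genes called higher in heart, genes called higher in liver, tested genes that were not called and genes that were not tested; kidney libraries were not used for the calls. Genes called higher in liver hold 3.18% to 4.04% of the heart libraries, and genes called higher in heart hold 12.9% to 17.3% of the liver libraries.

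The share of genes called was highest at a middle to high level. It was 51.6% of the 1249 tested genes with a mean log2(FPKM + 1) below 1, 55.7% of the 5704 genes from 2 to 4, and 76.6% of the 569 genes from 6 to 8. It was 59.8% of the 204 genes above 8. In that highest class, 42.2% of the genes were called higher in heart and 17.6% higher in liver. The spread between replicates differed there. The median SD of log2(FPKM + 1) was 0.151 between heart libraries and 0.514 between liver libraries in the highest class, and 0.171 and 0.202 below 1. Replicate spread in liver thus grew with the level of the gene, and that in heart did not.

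Abundant genes varied more between the liver libraries than between the heart libraries. Among tested genes with a tissue mean above 100 FPKM, the highest library exceeded the lowest by more than 4-fold in 46 of 655 genes in liver (7.02%) and in 16 of 663 in heart (2.41%). The library farthest from the others was liver 1 in 34 of the 46 and heart 1 in 12 of the 16. The median ratio of the highest to the lowest library was 1.82 in liver and 1.18 in heart.

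Large differences were distributed unequally between the directions. At a size of at least 2 on the log2(FPKM + 1) scale, 1069 genes were higher in heart and 1062 in liver. At a size of at least 4, there were 263 in heart and 387 in liver. At a size of at least 6 the order turned, with 88 genes higher in heart and 16 in liver, and at a size of at least 8 there were 33 and 1. The only liver gene past 7 was ENSBTAG00000043561, described above as listed at 0 in heart. The heart counts include genes of the same kind, listed at 0 in all liver libraries: 11 of the 88 and 7 of the 33. Without the genes at 0 in every library of the other tissue, 77 heart genes and 15 liver genes remained at 6 or more, and 26 and 0 at 8 or more. With only the genes above 0 in every library of the other tissue, there were 53 and 15 at 6 or more, and 12 and 0 at 8 or more. The largest of these differences was 13.34 in favour of heart and 6.46 in favour of liver. These restrictions were chosen after seeing the data. All counts by size rest on the deposited values and were not repeated under another scaling.

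**Figure D2:**
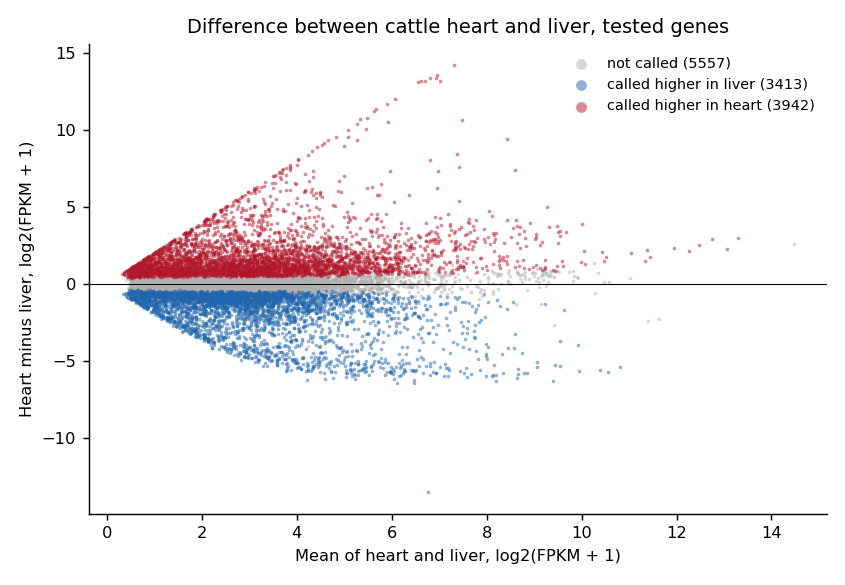
Each point is a tested gene, with its mean log2(FPKM + 1) over heart and liver on the horizontal axis and the difference of heart minus liver on the vertical axis; colours mark the 3942 genes called higher in heart, the 3413 called higher in liver and the 5557 not called. The upper edge reaches 14.17, while the lower edge levels off near −6.5 except for the gene listed at 0 in heart.

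**Figure D3:**
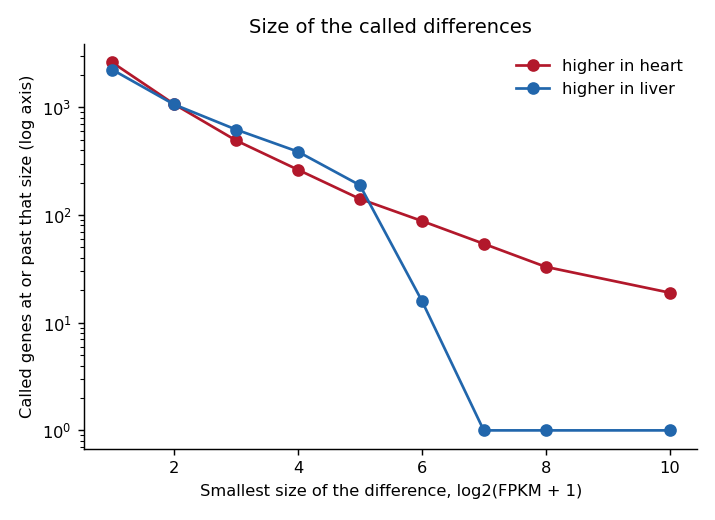
The number of called genes (log axis) whose difference is at least the size on the horizontal axis, in units of log2(FPKM + 1), by direction. With the deposited values, there are 263 heart genes and 387 liver genes at 4 or more, and 88 heart genes and 16 liver genes at 6 or more.

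The 10 largest differences in each direction show the same contrast. The 10 genes most in favour of heart had 2434 to 23076 FPKM in the heart libraries and 0 to 0.606 FPKM in the liver libraries. Of these, 7 were listed at 0 in at least 1 liver library, and 1 in all of them. The 10 genes most in favour of liver had 120 to 14562 FPKM in the liver libraries, and apart from the gene listed at 0 they were detected in every heart library, at up to 108 FPKM. The differences were 11.66 to 14.17 in favour of heart, and 6.16 to 6.46 in favour of liver for the genes above 0.

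ENSBTAG00000005333 had the largest difference in favour of heart among called genes that did not overlap and were above 0 in all 6 libraries. Its level was 12020, 12305 and 13092 FPKM in heart 1, 2 and 3, and 0.191, 0.0468 and 0.396 FPKM in liver 1, 2 and 3. The heart libraries were close to each other, and every liver library was below 0.5 FPKM. The difference of heart minus liver was 13.34 ± 0.21 (SE) on the log2(FPKM + 1) scale (limma adjusted p = 1.83e-09). In kidney the gene had 0.153, 0.165 and 0 FPKM, much as in liver.

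ENSBTAG00000008394 was second in that order. It had 12716, 8622 and 8780 FPKM in the heart libraries and 0.0585, 0.107 and 0.118 FPKM in the liver libraries. Heart 1 was the highest of the heart libraries, and the tissues were far apart. The difference was 13.14 ± 0.23 (SE; limma adjusted p = 2.55e-09). Kidney had 1.05, 0.20 and 0.0653 FPKM.

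ENSBTAG00000016662 had the largest difference in favour of liver by the same rule. Its level was 848, 547 and 588 FPKM in liver 1, 2 and 3, against 5.73, 5.43 and 8.31 FPKM in heart 1, 2 and 3. The tissues did not overlap, but the gene stayed well above 0 in every heart library, unlike the heart genes named above in liver. All but 1 of the 100 highest liver genes, described below, were also above 0 in heart. The part of liver RNA in such heart levels was not tested. The mean in liver was 102 times that in heart, and heart minus liver was −6.46 ± 0.25 (SE; limma adjusted p = 2.38e-07). Kidney had 3.19, 0.864 and 0.501 FPKM.

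ENSBTAG00000040409 followed it and was the least even of the 4. It had 2774, 120 and 1647 FPKM in the liver libraries and 18.9, 2.15 and 12.4 FPKM in the heart libraries. Liver 2 was far below the other liver libraries, and heart 2 far below the other heart libraries. Heart minus liver was −6.45 ± 1.12 (SE; limma adjusted p = 0.00123). Over the other settings and the libraries left out, the limma adjusted p ranged from 7.62e-07 (with a replicate block) to 0.00931 (without liver 3). Kidney had 8.39, 2.54 and 1.46 FPKM.

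**Figure D4:**
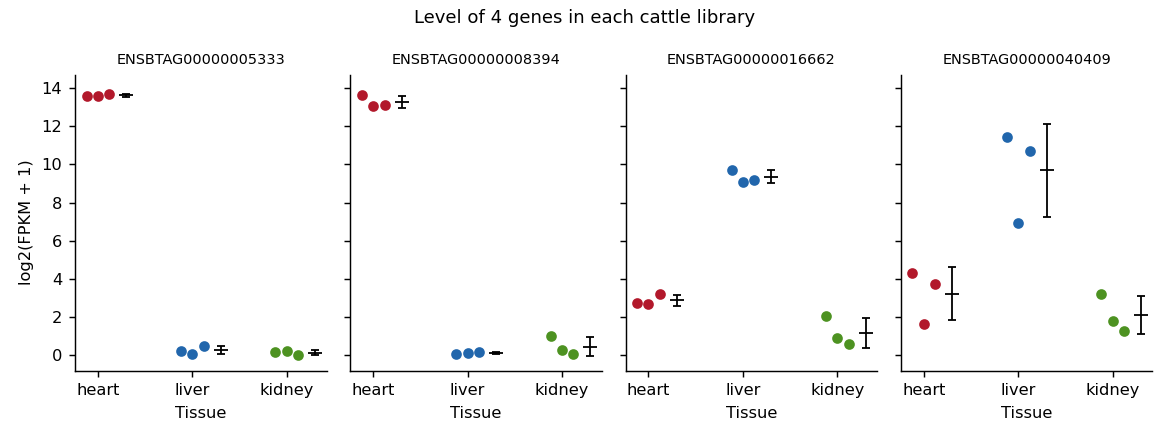
Points give log2(FPKM + 1) of 4 genes in each heart, liver and kidney library of cattle, and the bars beside them the mean ± SD of the 3 libraries. The first pair of genes is at or below 1.05 FPKM in every liver and kidney library, and the second pair is highest in liver but above 0 in every heart and kidney library. The part of liver RNA in the heart and kidney levels of the second pair was not tested.

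All but 1 of the 100 highest liver genes were above 0 in heart, most of them within a narrow range of relative levels. The 100 called and non-overlapping genes with the highest mean in liver, which began at 529 FPKM, had a median of 2.27% of their liver level in heart. In heart 1 the median was 1.56%, with 10% of the genes below 0.838%. It was 2.10% in heart 2 and 3.1% in heart 3. The exception listed at 0 was ENSBTAG00000043561. By the mean of the heart libraries, 72 of the 100 lay between 1% and 5% of their level in liver.

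The highest genes of heart behaved otherwise in liver. The 100 chosen in the same way in heart, which began at 744 FPKM, had a median of 9.79% of their heart level in liver, with 10% of them above 40.3% and 3 listed at 0 in all liver libraries. Of the 100, 22 were below 0.1% of their heart level and 5 lay between 1% and 5%. The relative levels of heart genes in liver thus covered a far wider range than those of liver genes in heart. The genes were chosen by these calls, and both ranges are a description.

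**Figure D5:**
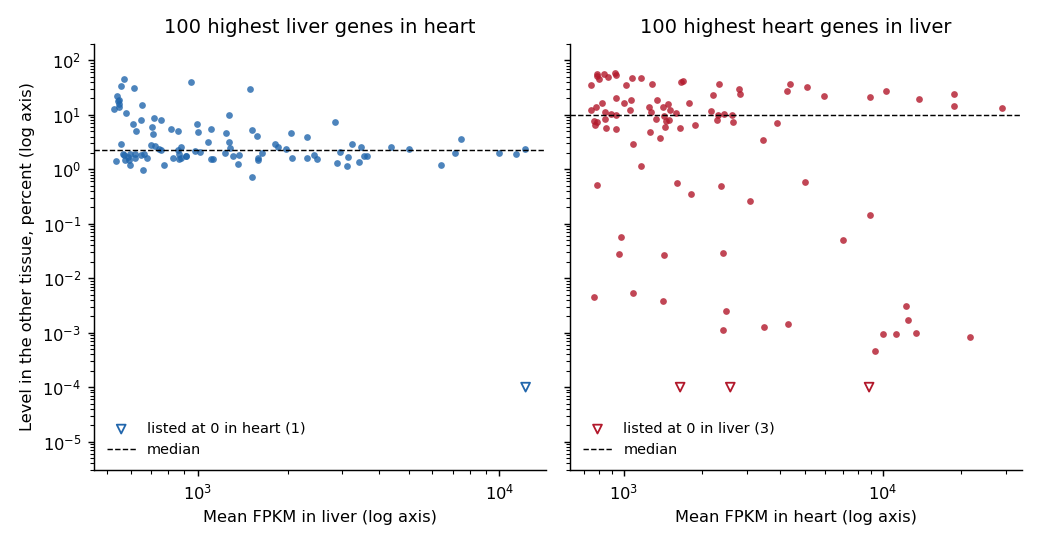
Each point is one of the 100 called and non-overlapping genes with the highest mean in liver (left) or heart (right), with its mean FPKM there (log axis) against its level in the other tissue as a percent (log axis); triangles are genes listed at 0, drawn at an arbitrary height, and dashed lines are medians. Liver genes gather around 2.27% in heart, whereas 22 of the heart genes lie below 0.1% in liver.

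The same contrast was seen over a wider range of levels. Among called and non-overlapping genes with a mean of at least 30 FPKM in the tissue where they were higher, 114 of 1203 heart genes (9.48%) were below 1% of their level in liver, and 71 were below 0.1%. Of 961 liver genes, 15 (1.56%) were below 1% of their level in heart, and the only one below 0.5% was the gene listed at 0. The lowest ratio above 0 was 0.601% for a liver gene in heart and 0.000470% for a heart gene in liver.

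The levels of the highest liver genes also differed between the heart libraries. Over the 99 of the 100 liver genes that were above 0 in heart, heart 3 had 1.79 times the level of heart 1 (median), and was higher in 89 of the 99. Heart 3 had 1.33 times the level of heart 2 and was higher in 91. Over all 3978 tested genes above 10 FPKM in every heart library, the corresponding medians were 1.00 and 1.03. The 100 liver genes held 0.597%, 0.735% and 1.03% of the summed FPKM in heart 1, 2 and 3, and 30.9% to 37.6% in liver. The same genes had medians of 0.610%, 0.256% and 0.116% of their liver level in kidney 1, 2 and 3. The part of liver RNA in these levels was not tested, and the sizes of the differences in favour of liver rest on them.

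Genes listed at 0 throughout a tissue were also unequal in number. In 98 genes all liver libraries were at 0 and all heart libraries above 0.5 FPKM. In 14 genes all heart libraries were at 0 and all liver libraries above 0.5 FPKM. Above 5 FPKM the numbers were 34 and 1, the latter being ENSBTAG00000043561. Of the 98 genes, 40 were listed at 0 in all kidney libraries as well and 12 exceeded 0.5 FPKM in all of them. Liver genes seldom came near 0 in heart. Among those called, not overlapping and with a mean of at least 30 FPKM, the lowest ratio above 0 was 0.601%. The part of liver RNA in the heart libraries was not tested. The genes at 0 were chosen by their values, and their numbers are a description.

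Kidney played no part in the calls, and for most of the large differences it lay nearer to the tissue with the lower level. For differences of at least 4, kidney was nearer to liver in 223 of 263 genes higher in heart (84.8%), and nearer to heart in 376 of 387 genes higher in liver (97.2%). The median level of those liver genes was 142 FPKM in liver, 3.28 in heart and 0.932 in kidney. The median level of those heart genes was 96.8 FPKM in heart, 0.505 in liver and 2.11 in kidney. By these medians, the liver genes were higher in heart than in kidney, and the heart genes were lower in liver than in kidney. The genes were chosen by the size of their difference and counted on the deposited values only, so the counts are a description.

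Over all called genes, kidney was above both tissues for 33.2% of the genes higher in heart and 42.4% of those higher in liver. It was between them for 53.2% and 34.5%, and below both for 13.6% and 23.0%. Of the 5557 genes not called between heart and liver, 79.6% were highest in kidney. These shares depend on scaling. With median ratio scaling of the 9 cattle libraries, kidney was above both for 15.0% and 21.7% of the called genes and for 51.0% of the genes not called.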

How the data were processed

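Strand-specific dUTP libraries were made from total RNA. By the study's methods, the authors removed reads with too many unidentified bases, with adapter sequence or with mostly low-quality bases. They mapped the remaining reads with TopHat to UMD3.1 and quantified genes with Cufflinks 2.2.1. The deposited table gives log2 values, log2(FPKM + 1), by gene and by library, and FPKM was calculated back from them. Without counts the depth is unknown, and intervals for counting error could not be computed. In genes under 0.3 FPKM, compared between pairs of libraries of one tissue, the most frequent log2 ratio lay between −0.25 and 0.35 and held 10.2% to 18.4% of 1341 to 1677 genes, which is a rough estimate of relative depth. FPKM is relative: a few very abundant genes lower all others.

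Heart minus liver was fitted with limma 3.58.1 (R 4.3.3) on the 6 libraries, a mean per tissue, eBayes with a trend, and Benjamini-Hochberg adjustment over all 12912 tested genes at 0.05. Shares of the sum were compared with exact permutation tests (scipy 1.17.1, Python 3.11.15), 2-sided. The genes named first were to be the members of fixed lists, the 10 largest differences in each direction and the 10 highest genes. Since no identifier matched a symbol, the rule's alternative named the 2 largest differences in each direction among called genes that did not overlap and were above 0 in all 6 libraries, and the lists of tissue genes and cell type markers were not analysed here. The alternatives were other pseudocounts, filters, scalings, a fit with 9 libraries, a replicate block and leaving out each library. The comparison, the rules and the lists were chosen with earlier results of these data known. Goat and sheep tables, and the goat proteins, were not used here.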

Additional observations from a re-analysis of the deposited data

How the results depend on the processing

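The number of genes called stayed within 1.5 times of 7355 under every alternative run (5976 to 7663 without 1 library, 6017 with heart 2 and 3 averaged, 6290 without genes that passed through only one tissue), other than a minimum log2 difference of 1, which must lower it and left 4846. Whether equal replicate numbers mark the same animal was not settled. The deviations of heart and liver libraries with the same number correlated at 0.046, 0.015 and −0.029. Pairs with different numbers ranged from −0.0746 (heart 1 with liver 2) to 0.0842 (heart 3 with liver 2). Values near 0 cannot exclude such a pairing, since other differences between libraries can outweigh those between animals. The fit with a replicate block called 7055 genes. The share of calls higher in heart was 52.1% with the study's filter, 51.8% with median ratio scaling, 52.3% with quantile normalization, 55.2% with heart 2 and 3 averaged, and 50.6% to 55.6% without 1 library. Scaling to the same sum turned it to 30.6% and the median to −0.44, since heart libraries have larger sums. Leaving out 1 library moved the median log2 difference over a range of −0.0201 (without liver 3) to 0.0665 (without liver 2), and it was −0.00964 without heart 1. The genes at 0 in liver fell to 34 above 5 FPKM, and those at 0 in heart to 4 above 1 FPKM and 1 above 5 FPKM. Kidney was above both tissues for 15.0% (heart) and 21.7% (liver) of the calls after median ratio scaling. The 10 highest genes took 11.6 to 17.1 percentage points more in heart without 1 library. The 4 named genes kept their direction and call under the alternatives that tested them. The alternatives for the levels of the highest genes, the genes at 0 and kidney, and the calls without genes of only one tissue were chosen after seeing the data.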
